A study of Mus musculus with 8 samples.

Results

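The AP-1 and EGR immediate early factors were followed in epididymal white adipose tissue (eWAT, a visceral fat depot that lies against the epididymis) of 8 male mice. The set was fixed by gene name as 10 genes: Fos, Fosb, Fosl1, Fosl2, Jun, Junb, Jund, Egr1, Egr2 and Egr3. Where a gene had several probe sets annotated to it alone, the brightest on average over the 8 arrays stood for it. The family was chosen by values reported here: the KO and WT levels of these genes, which had been seen to differ, and to differ among the KO animals. Its levels are therefore given as a description. Of the 10 genes, 9 had such a probe set, among 22180 genes measured. Fosl1 shared its one probe set with another gene, so no value can be given for it.

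The groups were 3 wild-type (WT) mice and 5 mice with a knockout of Abhd15 (KO), all on a C57BL/6J background and fed normal chow, with 1 array per mouse. At 14 weeks of age the animals were fasted overnight and given chow for 1 h before the tissue was frozen. ABHD15 is an alpha/beta-hydrolase family protein of adipocytes linked to insulin's restraint of lipolysis. Abhd15 itself read 6.36, 6.45 and 6.14 in WT 1 to WT 3 and 5.77, 6.07, 6.27, 5.6 and 5.75 in KO 1 to KO 5, so the KO arrays were mostly below WT but KO 3 lay inside the WT range. This value does not check the labels, since it is not known whether the probes lie in the altered part of the gene. WT and KO therefore mean arrays labelled so throughout, and every direction between them rests on the labels. The sources used here do not say how the knockout allele was made, whether animals shared a litter, or in which order they were handled.

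FOS and JUN proteins are leucine zipper transcription factors that pair with each other to form AP-1, which binds its sites at target genes. JUN proteins can also pair among themselves, whereas FOS proteins need a partner. EGR proteins are zinc finger factors that bind GC-rich sites. Many of these genes are immediate early genes: a growth factor, hormone, stress or mechanical stimulus switches them on within minutes through kinases that act on factors already present, and their transcripts decay again quickly. Fos, Fosb, Egr1, Egr2 and Egr3 belong to the sharply inducible genes, whereas Jund is usually present throughout.

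Some promoters are shown because Fos, Fosb and Egr2 varied together across the arrays and Jun did not. Promoter windows were searched for 7 of the 10 members, taken from the RefSeq promoter table (GRCm38.p6). Fosl1, Egr1 and Egr3 were not among them. The Fos, Fosb and Jun sequences are the 250 bases before the gene's start, 5′ to 3′ on the gene's strand. Capitals mark every match, on either strand, to 6 motifs: the CArG box bound by serum response factor, the cyclic AMP response element and its AP-1 relative TGACNTCA, the short response element TGACG, the AP-1 site TGANTCA, the EGR site GCGNGGGCG and the TATA box TATAAA. The short TGACG overlaps the longer element wherever that element begins with TGACG.
Fos, chr12:85473640-85473889, plus strand: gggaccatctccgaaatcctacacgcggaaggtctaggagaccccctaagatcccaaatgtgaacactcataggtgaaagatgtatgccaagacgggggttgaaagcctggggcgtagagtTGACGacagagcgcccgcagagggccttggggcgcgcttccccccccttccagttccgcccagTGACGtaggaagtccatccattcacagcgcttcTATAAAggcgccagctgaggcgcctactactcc
Fosb, chr7:19310046-19310295, minus strand: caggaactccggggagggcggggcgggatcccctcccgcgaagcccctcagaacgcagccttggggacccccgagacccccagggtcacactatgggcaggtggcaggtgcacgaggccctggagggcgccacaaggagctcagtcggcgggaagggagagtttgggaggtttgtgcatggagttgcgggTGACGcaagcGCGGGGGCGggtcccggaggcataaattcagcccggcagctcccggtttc
Jun, chr4:95052223-95052472, minus strand: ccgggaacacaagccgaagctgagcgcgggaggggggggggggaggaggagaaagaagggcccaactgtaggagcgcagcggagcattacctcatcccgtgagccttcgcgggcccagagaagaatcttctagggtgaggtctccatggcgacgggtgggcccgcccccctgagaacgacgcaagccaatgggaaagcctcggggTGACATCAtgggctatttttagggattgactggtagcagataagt
Egr2, chr10:67537790-67537819, plus strand, a stretch of 30 bases before one of its 5 listed starts: cctcagtCCATATATGGgcagcgaCGTCAc

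The short response element TGACG occurred in Fos (2 matches), Fosb, Junb and Egr2, 4 of the 7 members, and in 17.8% of all 32851 promoter windows of this length. The full form TGACNTCA matched only Jun among the 7, and 7.49% of all windows. Among the 7, a CArG box was found only at Egr2, where it is the first run of capitals shown. It occurred in 1.47% of all windows. Sites more than 250 bases upstream were not searched, and Egr1 and Egr3 had no window. Other members may therefore have a CArG box that was not seen. The EGR site matched Fosb and Fosl2 (4.7% of windows), the TATA box Fos alone (12.4%), and the AP-1 site none of the 7 members (6.75%). These matches describe the letters in these windows and say nothing of which factor was bound.

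The 9 measured genes fell into 2 kinds. Fos, Fosb, Egr1, Egr2 and Egr3 differed by more than 4-fold among the 5 KO animals, with values high in KO 1 and KO 2, intermediate in KO 3, and near WT in KO 4 and KO 5. Fosl2, Jun, Junb and Jund spread over less than 1 log2 unit in either genotype. All values are log2 values, in which 1 unit is a 2-fold change, and levels are compared between arrays of the same gene and not between genes. In whole tissue, more cells that express a gene and more RNA per cell cannot be told apart.

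**Figure D1:**
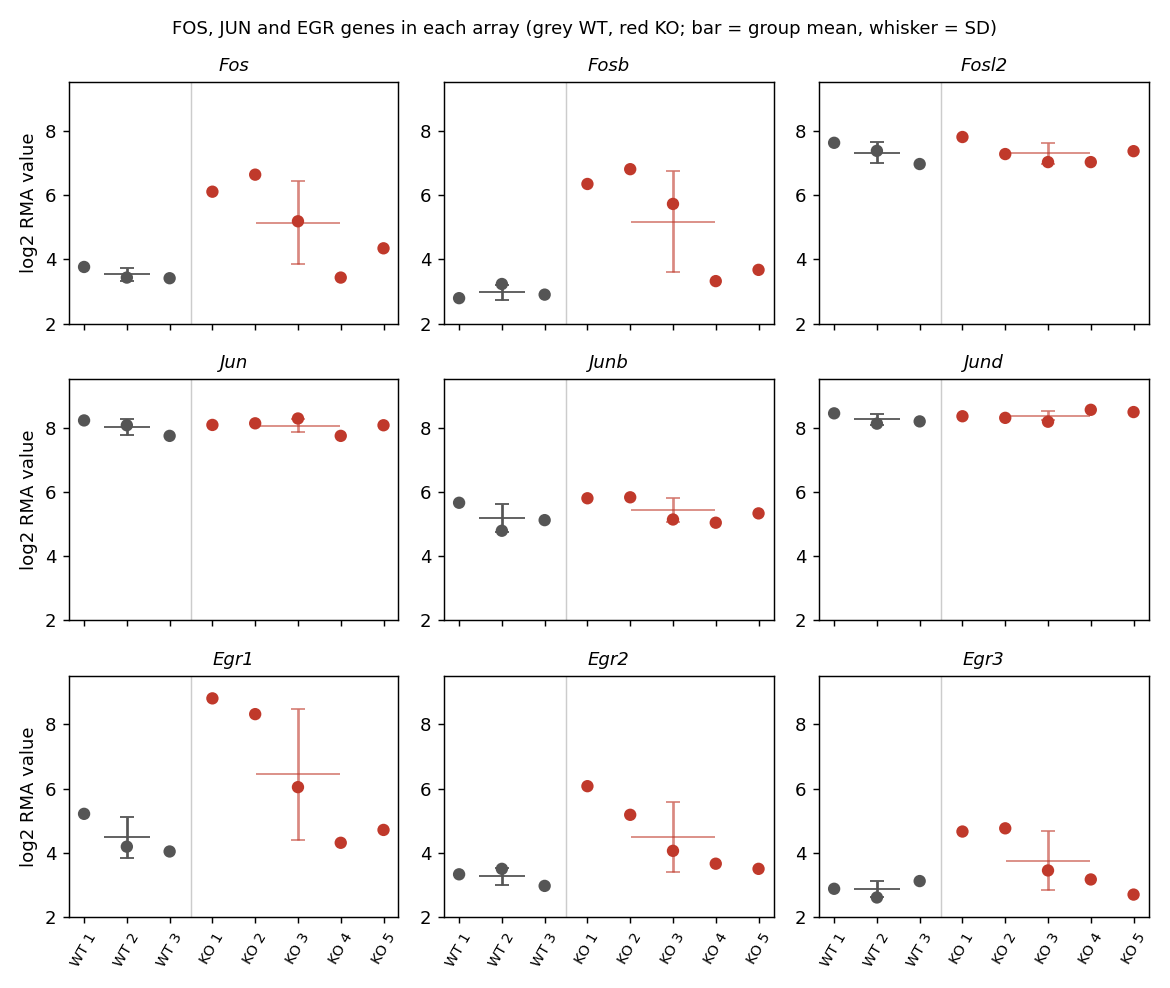
Log2 value (vertical axis) of the 9 measured genes in each of the 8 arrays, with WT in grey and KO in red. Horizontal bars are group means and whiskers the SD (n = 3 WT, n = 5 KO). In the panels of Fos, Fosb, Egr1, Egr2 and Egr3 the arrays KO 1, KO 2 and KO 3 lie above all WT arrays, while the points of Fosl2, Jun and Jund form nearly level rows.

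Fos, the founding FOS family subunit, read 3.76, 3.43 and 3.41 in WT 1 to WT 3, and 6.1, 6.63, 5.18, 3.43 and 4.34 in KO 1 to KO 5. The highest KO arrays thus stood far above WT, KO 5 lay moderately above it, and KO 4 lay inside the WT values. The group means were 3.53 ± 0.196 (SD, n = 3) and 5.14 ± 1.29 (SD, n = 5), a difference of 1.6 (SE 0.61). Relative to the WT mean the signal of Fos was 8.56-fold in KO 2, 5.95-fold in KO 1, 3.13-fold in KO 3, 1.75-fold in KO 5 and 0.935-fold in KO 4.

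Fosb, whose protein is close to FOS and which is also spliced to a short form that lasts longer, read 2.79, 3.23 and 2.9 in WT and 6.34, 6.8, 5.72, 3.32 and 3.67 in KO. It was the 1 member of 9 in which every KO array lay above every WT array, although KO 4 cleared the highest WT array by very little. Over all measured genes 3.17% had every KO array above every WT array, and over the 11090 tested genes 2.99% did. The means of Fosb were 2.97 ± 0.226 (SD, n = 3) and 5.17 ± 1.58 (SD, n = 5), a difference of 2.2 (SE 0.743). The splice forms of Fosb cannot be separated with 1 probe set.

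Fosl2, the FOS-related subunit FRA-2, which is usually less transient than FOS, read 7.62, 7.37 and 6.96 in WT and 7.8, 7.27, 7.02, 7.02 and 7.36 in KO. Only KO 1 exceeded the WT arrays, and the groups overlapped. The difference of the means was -0.02 (SE 0.212), and its sign turned once array medians were made equal (0.01). No FOS family pattern therefore covered all 3 measured members: Fos and Fosb varied and Fosl2 did not follow them.

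Among the JUN genes, Jun, the main partner of FOS, read 8.22, 8.07 and 7.74 in WT and 8.08, 8.13, 8.28, 7.74 and 8.07 in KO, a difference of 0.05 (SE 0.159). KO 1 and KO 2, the arrays with the highest Fos, were thus inside the WT range for Jun, and KO 3 just above it. Jund gave 8.44, 8.12 and 8.19 in WT and 8.35, 8.3, 8.18, 8.55 and 8.48 in KO, a difference of 0.13 (SE 0.134). A further, dimmer probe set of Jund averaged 5.21 ± 0.349 over the WT arrays (SD, n = 3) and 5.41 ± 0.393 over those of KO (SD, n = 5). Its highest array was KO 1 and that of the brighter one KO 4, so the 2 Jund probe sets ordered the KO arrays differently. Junb, a JUN protein that tempers JUN activity and is itself inducible, read 5.66, 4.79 and 5.12 in WT and 5.8, 5.83, 5.14, 5.04 and 5.33 in KO. KO 1 and KO 2 were its highest arrays too, but only just above WT 1. Its difference was 0.24 (SE 0.245), which was -0.02 without KO 1 and KO 2 and ranged from 0.04 (without WT 2) to 0.47 (without WT 1) when single arrays were left out.

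Egr1, the EGR factor induced by most growth signals, had the widest spread of the members. It read 5.22, 4.2 and 4.05 in WT and 8.81, 8.32, 6.05, 4.32 and 4.72 in KO. The 2 highest arrays, KO 1 and KO 2, stood 19.9-fold and 14.2-fold above the WT mean, KO 3 stood 2.94-fold above it, and KO 4 and KO 5 lay inside the WT range. The group means were 4.49 ± 0.638 (SD, n = 3) and 6.44 ± 2.04 (SD, n = 5), a difference of 1.95 (SE 0.973). WT 1 was the highest WT array for Egr1, as it was for Fos, Fosl2, Jun, Junb and Jund.

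Egr2, known for its roles in myelinating Schwann cells and in early adipogenesis, read 3.34, 3.51 and 2.98 in WT and 6.08, 5.19, 4.07, 3.67 and 3.51 in KO. KO 1 was 6.97-fold, KO 2 3.76-fold and KO 3 1.73-fold above the WT mean, whereas KO 5 was level with the highest WT array. The difference of the means was 1.22 (SE 0.526). Egr3, a related factor often downstream of the same signals, read 2.89, 2.62 and 3.13 in WT and 4.67, 4.77, 3.46, 3.18 and 2.71 in KO. Its KO mean was 0.88 higher, the groups overlapped through KO 5, and its mean over all arrays (3.43) was below the level filter, so it was not tested.

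The arrays can be ordered for each gene. KO 2 came before KO 1 for Fos, Fosb and Egr3, and KO 1 before KO 2 for Egr1 and Egr2. KO 3 came next for all 5 of these genes. With 1 array per animal, neighbours such as KO 1 and KO 2 have no error of their own and their order cannot be tested. KO 1, KO 2 and KO 3 were each above the highest WT array for 5 of the 5 genes, KO 4 for 3 of them and KO 5 for 2. Of the 9 measured members, 5 had KO 1, KO 2 and KO 3 as their 3 highest arrays, against 4.57% of all measured genes and 7.12% of the tested genes. Since the family was put forward with this pattern known, nothing is read from that comparison.

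The KO arrays spread over at least 2 log2 units, 4-fold, for 5 of the 9 members, a spread reached by 2.03% of all measured genes and 2.13% of the tested genes. The smallest spread of these 5 was 2.06 (Egr3) and the largest of the other 4 was 0.79 (Fosl2 and Junb). The median KO spread of the tested genes was 0.59, so Fosl2 and Junb also spread more than the typical gene. In WT, Egr1 spread over 1.17 and the other members over 0.32 to 0.87, against a median of 0.33 over the tested genes.

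**Figure D2:**
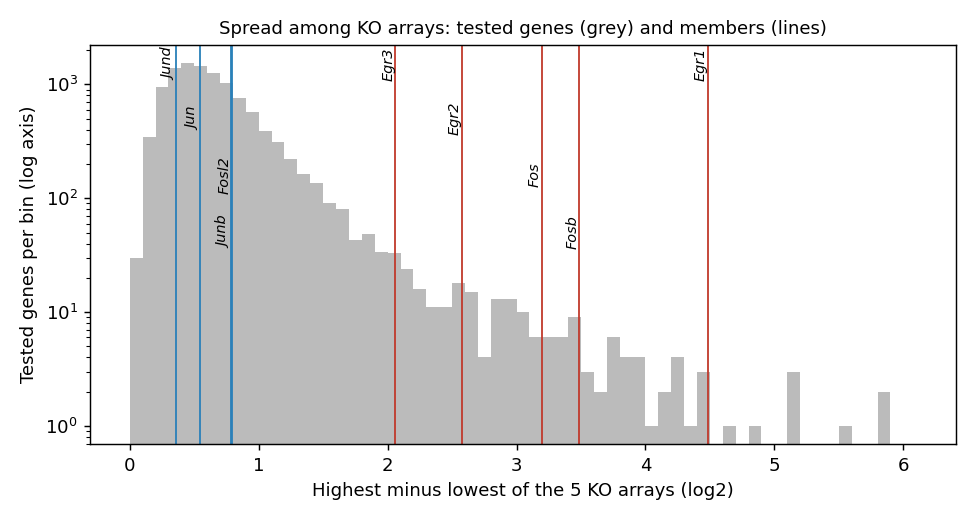
Highest minus lowest of the 5 KO arrays on the log2 scale (horizontal axis) for the tested genes, as a histogram with a logarithmic vertical axis, with vertical lines at the 9 measured members. Jund, Jun, Fosl2 and Junb lie between 0.36 and 0.79, and Egr3, Egr2, Fos, Fosb and Egr1 lie in the tail from 2.06 to 4.48.

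Of the 9 members, 8 had a higher mean in KO than in WT, as did 52.3% of all measured genes and 44.8% of the tested genes, and the median difference of the 9 was 0.88, against -0.028 over the tested genes. The genotype difference was known when the family was chosen, so these figures describe it and do not test it. In limma, fitted to all 11090 tested genes with Benjamini-Hochberg adjustment at 0.05, 0 of the 8 tested members were called, and 0% of the tested genes. At an unadjusted p under 0.05 there were 3 members (Fos, Fosb and Egr2), all higher in KO, and 1164 genes (10.5%), of which 448 were higher in KO (4.04% of the tested genes). These 448 were 38.5% of the 1164, whereas 48.7% of 978 genes were higher once array medians were made equal and 53.6% of 1997 with the replicate block described next. These 3 members had a WT mean below the level filter of 3.61 and entered the test only through their KO values. The smallest adjusted p among the members was that of Fosb (0.352).

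The differences of Fos, Fosb and the EGR genes rested largely on KO 1, KO 2 and KO 3. These were the highest arrays for those genes, so leaving them out had to lower the KO means. The values that follow therefore describe the size of the fall and test nothing. Without KO 1 and KO 2 the difference was 0.78 (SE 0.378) for Fos, 1.26 (SE 0.538) for Fosb, 0.54 (SE 0.457) for Egr1, 0.47 (SE 0.205) for Egr2 and 0.24 for Egr3. Without KO 3 as well, it was 0.35 for Fos, 0.52 for Fosb, 0.03 for Egr1, 0.31 for Egr2 and 0.07 for Egr3. The median of the 9 members went from 0.88 to 0.24 and then to 0.07. Both genotypes have arrays numbered 1 to 3, and with this number as a replicate block, a fit that rests on KO 1 to KO 3, Fosb was called by limma at 3.31 (SE 0.187, adjusted p = 0.0408), 1 of 2 genes called in that fit.

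**Figure D3:**
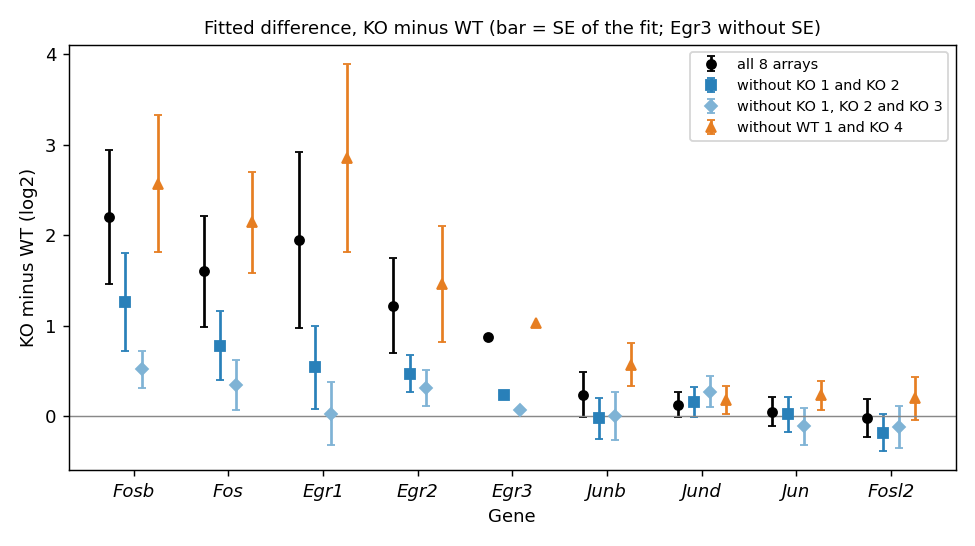
KO minus WT on the log2 scale (vertical axis) for the 9 measured members, with the SE of the fit as bars (Egr3 was not tested and has none), for all 8 arrays and for 3 reduced sets of arrays. The values of Fosb, Fos, Egr1, Egr2 and Egr3 shrink when KO 1 and KO 2, their highest arrays, are left out and again without KO 3. Those of Jund, Jun and Fosl2 stay between -0.18 and 0.27.

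Other early genes were examined as a list of 36, all measured and 33 tested, and the arrays that were high for Fos were high for some of them. In KO, 18 of the 33 were higher and 15 lower, none was called, and the median difference was 0.05, against -0.028 over all tested genes. At an unadjusted p under 0.05, 2 were higher and 2 lower. KO 1 and KO 2 were the 2 highest arrays for 14 of the 36, against 8.9% of all measured genes and 12.5% of the tested genes.

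Nr4a1, an orphan nuclear receptor gene induced by cyclic AMP and growth signals, read 6.28, 5.66 and 5.05 in WT and 7.56, 7.92, 7.52, 6.31 and 5.91 in KO, a difference of 1.38 (SE 0.464, adjusted p = 0.352 in limma). KO 1 to KO 3 were its highest arrays and KO 4 and KO 5 lay near or within the WT values. Ccn1, a secreted matricellular protein, read 7.12, 6.9 and 6.5 in WT and 8.3, 8.36, 7.64, 7.08 and 7.5 in KO, a difference of 0.94 (SE 0.292, adjusted p = 0.331 in limma). It overlapped through KO 4 alone.

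Plk3, a stress-responsive kinase, and Klf10, a factor induced by TGF-beta, had lower means in KO, by -0.74 (SE 0.254) and -0.55 (SE 0.193). Without WT 1, the highest array for Plk3, its difference was -0.45. The further early genes in this paragraph were named after their values were seen. Dusp1, the phosphatase that turns off MAP kinases, read 9.5 and 9.15 in KO 1 and KO 2, above the highest WT array (8.7), and 7.93 to 8.46 in the other KO arrays. Zfp36, whose protein speeds the decay of early transcripts, read 8.56 and 8.31 in these 2 arrays against 7.4 to 7.64 in WT. Btg2, an antiproliferative early gene, read 6.8 in both against 5.76 to 6.11 in WT. Myc, Errfi1, Ccn2, Per1 and Atf3 also had KO 1 and KO 2 as their 2 highest arrays. All of these further genes were among the 14 of 36 with that pattern, so they do not stand for the whole list.

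The NR4A family was not uniform. Nr4a2 had its 2 highest values in KO 2 (5.1) and KO 3 (4.74), and its difference was -0.1 (SE 0.369). Nr4a3, on the other hand, read 8.78 in WT 1, 5.51 and 5.84 in the other WT arrays and 4.86 to 6.47 in KO, a difference of -1.09 (SE 0.68) that rested on WT 1 (-0.05 without it) and was -1.68 without WT 2. Its lowest array was KO 1, one of those in which Nr4a1 and the EGR genes were high.

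**Figure D4:**
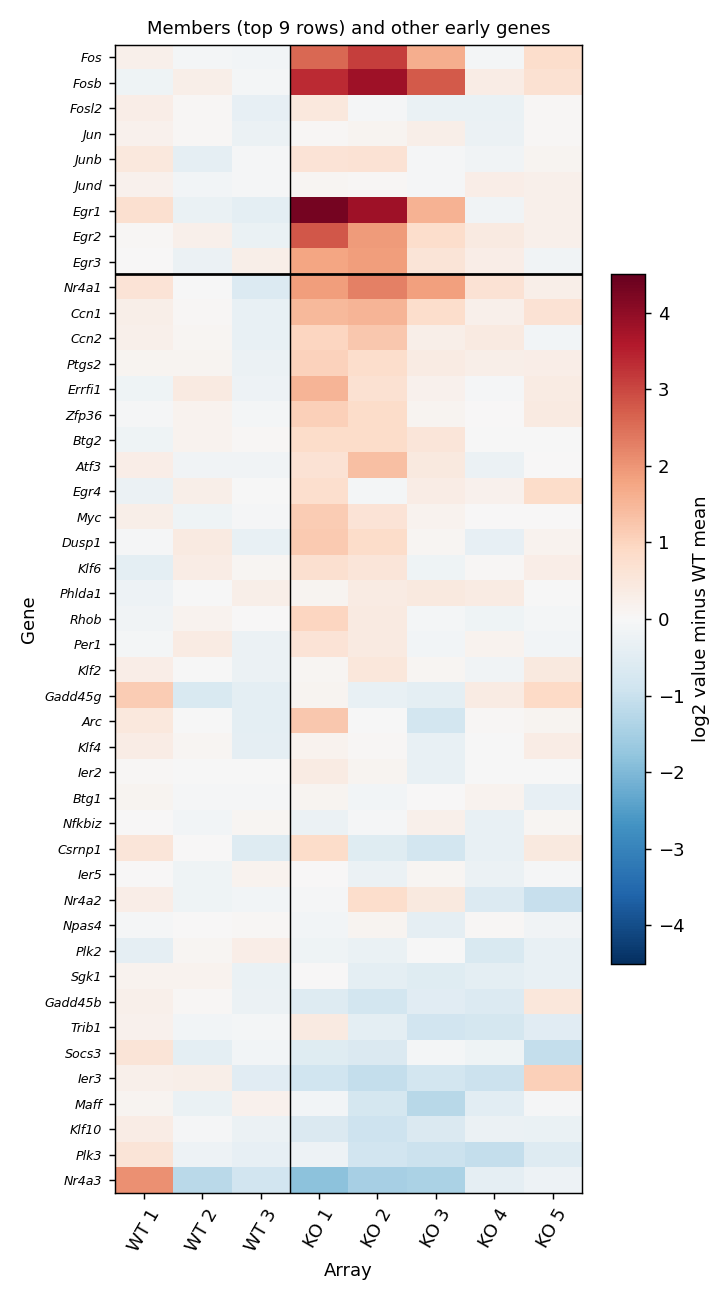
Log2 value minus the WT mean of the same gene (colour) in each of the 8 arrays (columns), for the 9 measured members above the black line and the 36 other early genes below it, ordered by their difference between KO and WT. Strong red is limited in the main to KO 1, KO 2 and KO 3 and to Fos, Fosb, the EGR genes, Nr4a1 and Ccn1, and Nr4a3 in WT 1 is the reddest cell among the WT columns.

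The partners and upstream factors of these proteins were examined next. Of the other bZIP genes that can pair with FOS or JUN or bind related sites, 14 of 16 were measured and 11 tested: 4 were higher and 7 lower in KO, none was called, and the median difference was -0.14. The nearest to the threshold were Maf (-0.43, SE 0.16), the cyclic AMP-responsive factors Creb1 (-0.28, SE 0.111) and Crem (-0.59, SE 0.248), and Batf3 (0.4, SE 0.195). Without WT 1, Crem was at -0.25 and Batf3 at 0.22. No gene of the 14 spread over 2 log2 units in KO.

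Among the kinases and factors that act before FOS, JUN and EGR transcription, 16 of 23 were measured and 15 tested: 4 were higher and 11 lower, none was called, and the median was -0.18. Mapk14, the p38 stress kinase, read 6.58, 6.64 and 6.44 in WT and 5.95 to 6.3 in KO (-0.4, SE 0.13). Srf, which binds CArG boxes, read 6.69, 6.8 and 6.78 in WT and 7.38, 7.05, 6.85, 7.46 and 7.01 in KO (0.39, SE 0.16). For both the groups did not overlap (8.53% of the tested genes and 6.57% of all measured genes did not, in either direction), and the order of the KO arrays for Srf was not that of Fos, since KO 4 was highest. Map2k4 (-0.23, SE 0.119), whose groups did not overlap either, and Mapk8 (-0.29, SE 0.173, and -0.17 without KO 5) followed. Kinase activity is not measured by transcript arrays.

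Of 6 genes for EGR co-repressors and for factors of early transcript decay, all were tested: 1 was higher and 5 lower, none was called, and the median was -0.2. Nab2, a co-repressor that EGR proteins themselves induce, read 5.75, 5.81 and 5.95 in WT and 6.31, 5.99, 5.94, 6.04 and 6.38 in KO (0.3, SE 0.142). KO 3, high for Egr1, was at the top of the WT range for Nab2, and KO 5, near WT for Egr1, was the highest. The other 3 named by the rule were Cnot6 (-0.34, SE 0.139), Zfp36l2 (-0.37, SE 0.167) and Nab1 (-0.22, SE 0.138; -0.13 without WT 1).

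Textbook targets of AP-1 and EGR factors showed no common direction. Of 22 listed, 20 were measured and 14 tested: 8 were higher and 6 lower, none was called, and the median was 0.02. Pdgfb, a growth factor made by endothelial cells, read 7.26, 7.18 and 7.38 in WT and 6.08, 6.19, 6.24, 6.58 and 7.08 in KO (-0.84, SE 0.217, adjusted p = 0.27 in limma), so that the arrays highest for Fos were lowest for Pdgfb. The endothelial marker Pecam1, named after its values were seen, put the 5 KO arrays in the same order as Pdgfb, from 8.18 in KO 1 to 9.1 in KO 5. It was alone in this among 7 endothelial markers. Of the KO arrays, Kdr was highest in KO 3 (8.35) and Cldn5 in KO 1 (7.65). The part of endothelial cells in the Pdgfb values was not tested. Hmox1, the haem-degrading enzyme, was at -0.59 (SE 0.187; -0.36 without WT 1) and the adhesion receptor Cd44 at 0.4 (SE 0.215). Cd44 had KO 1, KO 2 and KO 3 as its 3 highest arrays, the one measured target of 20 that did.

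Of 8 heat shock genes, 2 were higher and 6 lower in KO, none was called, and the median was -0.12. Hspa1a, the inducible HSP70, read 6.54, 6.12 and 6.42 in WT and 7.63, 7.84, 6.73, 7.03 and 6.12 in KO (0.71, SE 0.344). Its near copy Hspa1b, named after its values were seen, had the same 2 highest arrays, and the probes may not separate the 2 copies. Hspb1 (-0.47, SE 0.213), Hsph1 (-0.23, SE 0.17) and Hsp90aa1 (-0.17, SE 0.131) had lower means. Without WT 1 these were -0.3, -0.13 and -0.05.

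The profiles most like those of Fos and Egr1 were found by the root mean square distance between profiles over the 8 arrays, each centred on its own mean. For Fos the nearest tested gene was Fosb (0.47). The nearest 6 outside the family were Bmp3 (0.48), a BMP ligand made by adipocytes, Gnal (0.53), a stimulatory G protein alpha subunit, the acute phase protein gene Orm1 (0.53), Nr4a1 (0.54), the insulin receptor adaptor Grb14 (0.57) and Ccn1 (0.64). The median distance of the tested genes from Fos was 1.22. For Egr1 the nearest were Fosb (0.7) and Fos (0.7), and outside the family Gnal (0.76), Bmp3 (0.91), Orm1 (1), Nr4a1 (1.01), Cdsn (1.05) and Lctl (1.07), with a median of 1.76 over the tested genes.

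Of these neighbours, Bmp3 read 3.73, 4 and 3.79 in WT and 5.8, 6.1, 4.45, 3.67 and 3.55 in KO. Orm1 read 6.56, 6.24 and 6.32 in WT and 8.44, 8.19, 7.07, 6.7 and 6.74 in KO, with every KO array above every WT array. Gnal read 3.81, 3 and 3.1 in WT and 5.47, 5.63, 4.58, 2.46 and 2.52 in KO, so KO 4 and KO 5 lay below WT. The WT mean of Gnal (3.3) was below the level filter, so it was searched only through its high KO arrays. All 3 genes were picked for a profile near that of Fos. Their high KO 1 and KO 2 and intermediate KO 3 therefore follow from that choice. None was called.

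The tissue label was met by its markers: the list mean of 8 adipocyte genes, all tested, was 10.62 to 10.86 in WT. In KO 1 to KO 5 it was 10.93, 10.8, 10.58, 10.47 and 10.36, so among the KO arrays those high for Fos had the higher adipocyte means. This did not hold against WT, since KO 2 lay inside the WT range and KO 3 below it. Of the 8 genes 2 had a higher and 6 a lower mean in KO, and Pparg, the master factor of fat cells, was lower without overlap (-0.47, adjusted p = 0.331 in limma). Markers of other cell types moved in part with the arrays that were high for Fos, and their part in the result was not tested. The 1 measured gene of the 9 red cell markers, Slc4a1, the anion exchanger of red cells, read 4.72 in KO 1 and 5.28 in KO 2, while WT arrays lay between 2.9 and 3.11 and KO 3 to KO 5 between 2.61 and 3.1. It was not tested, being below the level filter. Of 5 probe sets annotated to several adult globin genes together, and so assignable to none of them, 3 had KO 1 and KO 2 as their highest arrays. In 1 beta globin probe set these read 7.31 and 7.3, while WT arrays lay between 6.06 and 6.37 and KO 3 to KO 5 between 4.99 and 6.07. KO 3 itself read 5.81. Of 5 red cell genes with a probe set of their own, 4 of them added after these values were seen, 2 had KO 1 and KO 2 highest.

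**Figure D5:**
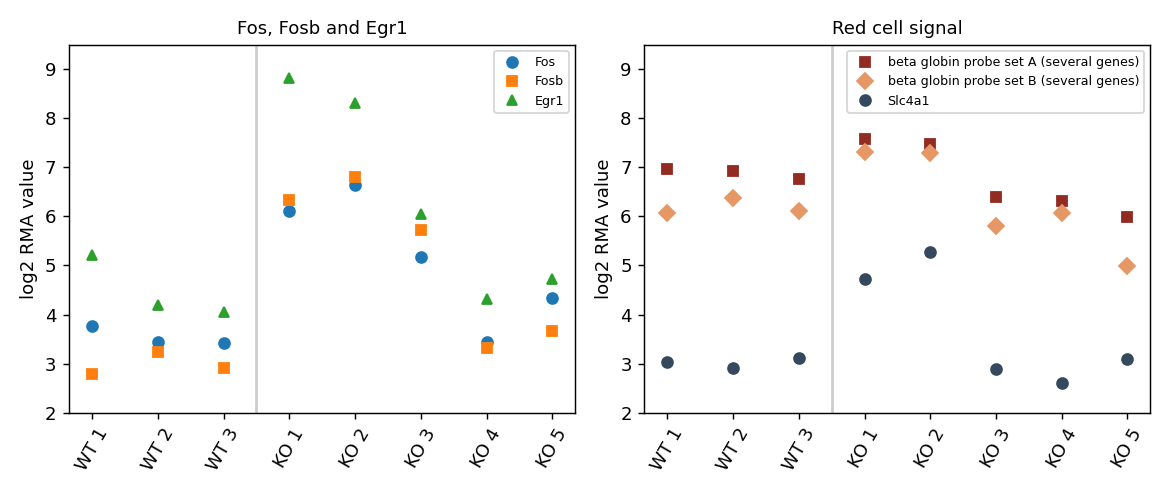
Log2 values (vertical axes) by array of Fos, Fosb and Egr1 on the left, and on the right of Slc4a1 and of 2 beta globin probe sets that each stand for several genes. KO 1 and KO 2 are the highest arrays in both panels, and KO 3 is above all WT arrays on the left only.

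The mean of 6 macrophage genes was 7.63 in KO 1 and 7.65 in KO 2, above the WT range of 7.27 to 7.53, and 7.03 to 7.5 in the other KO arrays. The 6 neutrophil genes had a low mean (2.26 to 2.78 in KO and 2.4 to 2.59 in WT), with KO 1 and KO 2 highest for 3 of the 6. The list means of 6 fibroblast genes (7.87 to 8.23 in KO, 8 to 8.17 in WT) and 5 mesothelial genes (5.67 to 6.2 in KO, 5.58 to 5.95 in WT) overlapped between the groups. So did those of 6 vascular smooth muscle genes (6.44 to 6.71 in KO, 6.62 to 6.91 in WT) and 5 skeletal muscle genes (3.43 to 4.27 in KO, 3.48 to 3.9 in WT). The fibroblast mean was above the WT range in KO 2 and KO 3 (8.23 in each) but not in KO 1 (8.12). Likewise the mesothelial mean was above it in KO 2 (6.2) and KO 3 (6.08) but not in KO 1 (5.85). The part of these cells in the result was not tested.

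Endothelial markers were mostly lower in KO. Of 7, all tested, 2 were higher and 5 lower, with a median difference of -0.44 and none called, and the list mean was 7.44 to 7.75 in KO and 7.6 to 7.98 in WT. Kdr, the VEGF receptor of endothelial cells, read 8.85, 8.76 and 8.88 in WT and 7.88, 8.14, 8.35, 8.19 and 8.16 in KO (-0.69, SE 0.131, adjusted p = 0.15 in limma), with no overlap and its lowest value in KO 1. Pecam1, an adhesion protein of endothelial junctions, read 8.86, 9.35 and 9.27 in WT and 8.18, 8.26, 8.51, 8.57 and 9.1 in KO (-0.64, SE 0.213), lowest in KO 1 and KO 2. Cldn5, a tight junction gene, was highest in those 2 arrays (7.65 and 7.49, against 6.35 to 7.22 in WT). The part of these markers in the results for Fos and the EGR genes was not tested.

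KO 3 stood apart for B cell genes. The mean of 6 lymphoid genes was 3.7 in KO 3, while the other KO arrays lay between 2.95 and 3.22 and WT between 2.98 and 3.24. Cd79a, part of the B cell receptor, read 5.31 in KO 3 and 3.06 to 3.8 in the 7 other arrays, and Ms4a1, which encodes CD20, read 4.07 and 2 to 2.74. Both were below the level filter, and their part in the values of KO 3 was not tested.

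Transcripts of the reproductive tract marked other arrays. WT 1 (6.64), WT 2 (5.49) and KO 4 (5.31) had the highest means of 7 spermatid genes, and the remaining arrays lay between 3.79 and 4.42. For 7 epididymis and seminal vesicle genes the mean reached 5.98 in KO 4 and 3.96 in WT 1, with all remaining arrays between 1.94 and 2.54. Without WT 1 and KO 4 the median difference of the 9 members was 1.03, with 9 of 9 higher in KO, and that of Egr1 was 2.85 (SE 1.04). KO 4 was the lowest KO array for Fos, Fosb and Egr1, so leaving it out raises their KO means, and the part of these transcripts in the result was not tested.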

How the data were processed

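Gene expression was measured in eWAT of 3 WT and 5 KO mice on an Affymetrix mouse gene array, from 200 ng of RNA each. The deposited values are log2 values made by RMA, which corrects background, normalizes between arrays and summarises probes, and which together with the package oligo is named in the submitters' processing notes. The design text names Expression Console, so which tool made them is not settled. Neither versions nor a genome build are given in what was used here. RMA compresses differences of dim probe sets.

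Of 41345 probe sets, 23521 had 1 gene symbol, 1814 several and 16010 none listed, and 23328 were matched by Entrez identifier to current symbols. The probe set with the highest mean was kept per gene (22180 genes), and those whose mean reached the median gene's (3.61 on the log2 scale) entered the tests (11090). The genotypes were compared by limma 3.58.1 (R 4.3.3; lmFit and eBayes, two-sided), and every SE and p-value of a gene is from that fit. The procedure was tested on simulated data with equal spread in both genotypes and the same shift in every KO array. Fos, Fosb and the EGR genes, which spread more in KO than in WT, do not meet that setting. Python 3.11.15 with matplotlib 3.10.9 made the figures.

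The members and lists were chosen with earlier results of these data known. Members are always named. Of each other list described by gene, up to 4 tested genes with the smallest unadjusted p are named, and for Fos and Egr1 the 6 nearest genes outside the family, leaving out predicted genes and small RNAs. Marker lists are described by their means, with single markers where these bear on the cell types in an array. The deviations of same-numbered WT and KO arrays from their group means correlated at 0.133, 0.103 and 0.192 over the tested genes. Differently numbered arrays were not compared in this way, and the labels do not state what a number means. Whether the numbers pair animals is therefore not known. The main fit does not pair them, and the replicate block is an alternative. The p-values set each difference against the spread among arrays of the same genotype, moderated over the tested genes. They take the animals as independent, and nothing states whether these came from separate litters. Medians over all probe sets were 2.93 to 3.12, no 2 arrays were identical, and precision is limited by how few arrays there are.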

Additional observations from a re-analysis of the deposited data

Results flagged for a closer look

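Among the 56 genes examined by name, the gap between the most extreme KO array and the next one was large for the group's range (above Dixon's critical value of 0.71 for 5 arrays) in 3 genes, all in KO 3. Cnot6 read 6.7 in KO 3 and 6.24 to 6.34 in the other KO arrays. Hmox1 read 6.8 in KO 3 and 7.22 to 7.28 in the others. Cd79a, a B cell gene below the level filter, read 5.31 in KO 3 and 3.12 to 3.46 in the others. Chance marks about 1 in 20 groups chosen without sight of their values. Some of the 56 genes, Cd79a among them, were named after their values were seen. The count and its place in KO 3 are therefore not compared with that share. None of the 9 measured members was marked.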

How the results depend on the processing

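Under 18 alternatives the number of the 9 measured members higher in KO was 8 or 9, except 7 without WT 3 and without KO 1 and KO 2, and 6 without KO 1, KO 2 and KO 3. The count does not say which: without KO 3, Jun turned to -0.01 and Fosl2 to 0.05. Neither a changed level filter nor the trended robust prior can alter a fitted difference, so the count was fixed under those. No gene was called with the settings reported, against 40 with array weights, 3 with a trended robust prior, 2 with the replicate block, 1 without KO 1, KO 2 and KO 3, and 0 to 5 when single arrays were left out (5 without KO 5). Fosb was the one member called, with the replicate block only (3.31), which took the median of the members to 1.42. The block changed no other call among the 56 named genes. The median of the members was 0.63 to 1.14 with single arrays left out. Array weights called Pdgfb (-0.97) and Kdr (-0.69). The cause of these changes was not tested.

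Signs turned for small differences. Fosl2 was at 0.01 with arrays centred, 0.06 with array weights, 0.05 with the replicate block, 0.2 without WT 1 and KO 4, and -0.2 to 0.13 with single arrays left out. Jun was at -0.08 to 0.15 with single arrays left out. Nr4a2 was at 0.22 with array weights, 0.39 with the block, 0.18 without WT 1 and KO 4, and -0.32 to 0.14 with single arrays left out. Without KO 1 and KO 2, Junb was at -0.02, Gnal -0.11, Lctl -0.17, Dusp1 -0.04, Hspa1b -0.16, Per1 -0.02 and Slc4a1 -0.15. Without KO 3 as well, Jun was at -0.11, Junb -0.00, Bmp3 -0.23, Gnal -0.81, Lctl -0.2, Btg2 -0.01, Atf3 -0.12, Dusp1 -0.11, Hspa1b -0.04 and Slc4a1 -0.16. Cd79a was at -0.03 without KO 3 and up to 0.62 with other single arrays left out. Of the 56 genes, 39 kept sign and side of the threshold throughout.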
